A study of Mus musculus with 2 samples.

Results

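The genes of the mouse major histocompatibility complex (MHC) and of peptide loading were examined in lung epithelial cells sorted after 3 months of smoke exposure. They were set against the same sort after 3 months of air exposure. The members were every measured gene whose platform symbol starts with H2-, together with B2m, Tap1, Tap2, Tapbp, Tapbpl, Erap1 and Ciita. This gave 42 genes of 19505, each with 1 probe. Of these, 31 belonged to class I and 10 to class II, and H2-Ke6 shares only the H2- name. Cd74 (the invariant chain) and Nlrc5 (the class I coactivator) were not analysed here.

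Both samples were total RNA of lung cells that carried the SPC/GFP reporter signal and EpCAM, a surface protein of epithelium. SPC commonly stands for surfactant protein C, which alveolar type 2 cells make. The smoke sample came from mice exposed to smoke and the air sample from control mice, and each was hybridised to 1 Clariom S Mouse array. The sources used here do not state the strain, sex, age or number of animals, the kind of smoke, or how the reporter is driven. The strain matters for these genes, because MHC genes are highly polymorphic and a probe can bind one haplotype better than another. Because each group had 1 array, no difference could be tested against a spread between replicates, and no SD or p-value is given. Values are the authors' deposited signals, read as log2, and differences are smoke minus air.

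MHC class I molecules show peptides made inside the cell to CD8 T cells and to natural killer cell receptors. Peptides cut by the proteasome are pumped into the endoplasmic reticulum by TAP, trimmed by ERAP1 and loaded with the help of tapasin onto a heavy chain paired with beta-2 microglobulin. MHC class II molecules show peptides from endosomes to CD4 T cells. They are pairs of an alpha and a beta chain whose groove is first filled by a piece of the invariant chain, which the DM chaperone removes. Class II genes are a mark of professional antigen-presenting cells, but alveolar type 2 cells also make class II protein.

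The class II genes share a promoter module whose last element, the Y box, is bound by the factor NF-Y. RefSeq promoter windows (assembly GRCm38.p6, from 250 bases before to 50 after a gene's start) were found for 33 of the 42 members. H2-Ab1 was among the members with no such window, so its promoter was not read. The letters TGATTGG, the core of the Y box on either strand, stood in 7 of 8 class II promoters and 15 of 24 promoters of class I genes, against 7.82% of all 32851 promoters. The 7 class II windows are shown 5′ to 3′ with these letters in capitals, so that the 55 bases of neighbouring genes with unlike signals can be compared.
H2-DMb2: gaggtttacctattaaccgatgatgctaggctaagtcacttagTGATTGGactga
H2-DMb1: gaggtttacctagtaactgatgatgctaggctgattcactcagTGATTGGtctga
H2-Eb2: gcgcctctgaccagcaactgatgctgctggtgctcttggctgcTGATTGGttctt
H2-Eb1: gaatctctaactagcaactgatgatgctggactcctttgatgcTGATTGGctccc
H2-Aa: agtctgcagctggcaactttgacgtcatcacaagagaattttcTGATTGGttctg
H2-Ob: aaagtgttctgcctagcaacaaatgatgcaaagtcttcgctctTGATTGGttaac
H2-Oa: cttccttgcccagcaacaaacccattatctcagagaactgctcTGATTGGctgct
They lie at chr17:34145114-34145168 (H2-DMb2, plus strand), chr17:34153085-34153139 (H2-DMb1, plus), chr17:34325530-34325584 (H2-Eb2, plus), chr17:34305763-34305817 (H2-Eb1, plus), chr17:34287862-34287916 (H2-Aa, minus), chr17:34238803-34238857 (H2-Ob, plus) and chr17:34092291-34092345 (H2-Oa, plus). The paralogs H2-DMb2 and H2-DMb1 shared 49 of 55 bases in this window, and H2-Eb2 and H2-Eb1 shared 40. The letters were chosen after the promoters had been read, and a match describes the sequence, not a bound site.

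Upstream in class I promoters lies enhancer A, which holds a site for NF-kB. The letters GGGGATTCCC stood on either strand in the promoters of H2-D1 and H2-K1 alone among the members, and in 0.107% of all promoters. H2-Q4 was the only member with GGGGATTTCC, found in 0.0974% of all promoters. The windows of 50 bases are shown because H2-Q4 differed 2-fold between the arrays, while H2-D1 and H2-K1 did not. The capitals mark these letters. They were read from the H2-K1 and H2-Q4 promoters themselves, so their presence in those promoters was fixed beforehand. A match describes the sequence, not a bound site, and no link to the signals was tested.
H2-Q4: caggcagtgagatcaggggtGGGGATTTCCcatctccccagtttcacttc
H2-D1: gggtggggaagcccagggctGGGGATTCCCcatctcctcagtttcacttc
H2-K1: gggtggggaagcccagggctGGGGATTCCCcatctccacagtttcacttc
They lie at chr17:35379423-35379472 (H2-Q4, plus strand), chr17:35262903-35262952 (H2-D1, plus) and chr17:34000429-34000478 (H2-K1, minus). The H2-D1 and H2-K1 windows shared 49 of 50 bases.

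The comparison of smoke with air asked how antigen presentation genes of the sorted cells stood after 3 months of exposure. The 7 class II chains that passed the level filter given below differed by 0.01 (H2-DMa) to 1.20 (H2-DMb2, 2.30-fold). The classical class I heavy chains and B2m differed by -0.08 to 0.22. These ranges overlapped, and H2-Eb1 (0.26) was close to H2-D1 (0.22). Counts are of genes with a log2 difference of at least 1 or at most -1 (2-fold) whose brighter array reached 4.57, the median over all deposited values. Of the 42 members, 27 passed this level filter: 3 were 2-fold higher in smoke (H2-DMb2, H2-Eb2, H2-Q4) and 0 were 2-fold lower. Over all 10419 genes that passed, 3.94% were 2-fold higher and 2.48% were 2-fold lower. H2-Eb2 passed only through its smoke signal, so the filter itself favoured a difference for that gene.

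The largest class II differences were those of H2-DMb2, H2-Eb2, H2-Ab1 and H2-DMb1. With no level filter, the median difference over the 10 class II genes was 0.305, against -0.02 over all genes and 0.08 over the 31 class I genes. Above the filter, the medians were 0.50 for class II, 0.06 for all genes and 0.285 for class I. Among the 8 class II genes above the filter, 7 were higher in smoke, where 54.3% of all filtered genes were higher. The 7 include H2-Eb2, whose direction was fixed by the filter. They also include H2-DMa, which differed by 0.01, and by -0.0975 under quantile normalization. At 1.5-fold, 4 of the 8, H2-Eb2 among them, were higher and 1 was lower, beside 14.5% and 9.19% of all filtered genes. Without H2-Eb2 the median over the other 9 was 0.26 with no level filter. Above the filter it was 0.35 over the other 7.

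H2-DMb2, a beta chain of the DM chaperone, had a signal of 12.87 in smoke and 11.67 in air. That is a difference of 1.20, or 2.30-fold. Of the 200 genes outside the module nearest to it in mean level, 4 differed by as much in this direction, and the central 95% of those genes ran from -0.83 to 0.90. H2-DMb1, the paralogous beta chain encoded next to it, stood at 15.97 in smoke and 15.32 in air, 1.57-fold higher. H2-DMa, the alpha chain with which both pair, was at 10.10 in smoke and 10.09 in air. The beta chains of DM were thus higher on the smoke array while the signal of their partner was level. Of the 200 genes nearest to H2-DMb1, 17 differed by as much as it did. Its difference of 0.65 lay inside the central 95% of those genes, which ran from -0.58 to 1.07.

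The 4 measured antigen-binding chains were on the higher side, also under quantile normalization, centring by level and the offset. H2-Ab1, the beta chain of the A molecule, stood at 16.94 in smoke and 16.16 in air, a difference of 0.78 reached by 11 of the 200 genes nearest in level. H2-Aa, its alpha chain, stood at 16.71 in smoke and 16.36 in air, a difference of 0.35 reached by 33 of 200. H2-Eb1, the beta chain of the E molecule, was at 13.11 in smoke and 12.85 in air, which 71 of 200 matched or passed. The beta chain of A thus lay further from the middle of its like-level genes than the alpha chain did, and H2-Eb1 lay among the bulk of them. Both chains of A were still inside the central range of those genes, -0.58 to 0.94. H2-Eb2, a second E beta gene, was at 4.84 in smoke, just above the filter, and at 3.71 in air, below it. Its difference of 1.13 was 0.62 when an offset of 16 was added on the linear scale, so its size rested in part on the low air signal.

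The DO chains, which restrain DM, were below the filter on both arrays. H2-Oa was at 4.54 in smoke and 4.35 in air, and H2-Ob was at 3.93 in smoke and 4.25 in air. Ciita, the coactivator on which class II transcription depends, went the other way from the chains. Its signal was 8.82 in smoke and 9.44 in air, 1.54-fold lower. Of its 200 nearest genes, 6 were as low or lower, and its difference was -0.74 under quantile normalization.

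**Figure D1:**
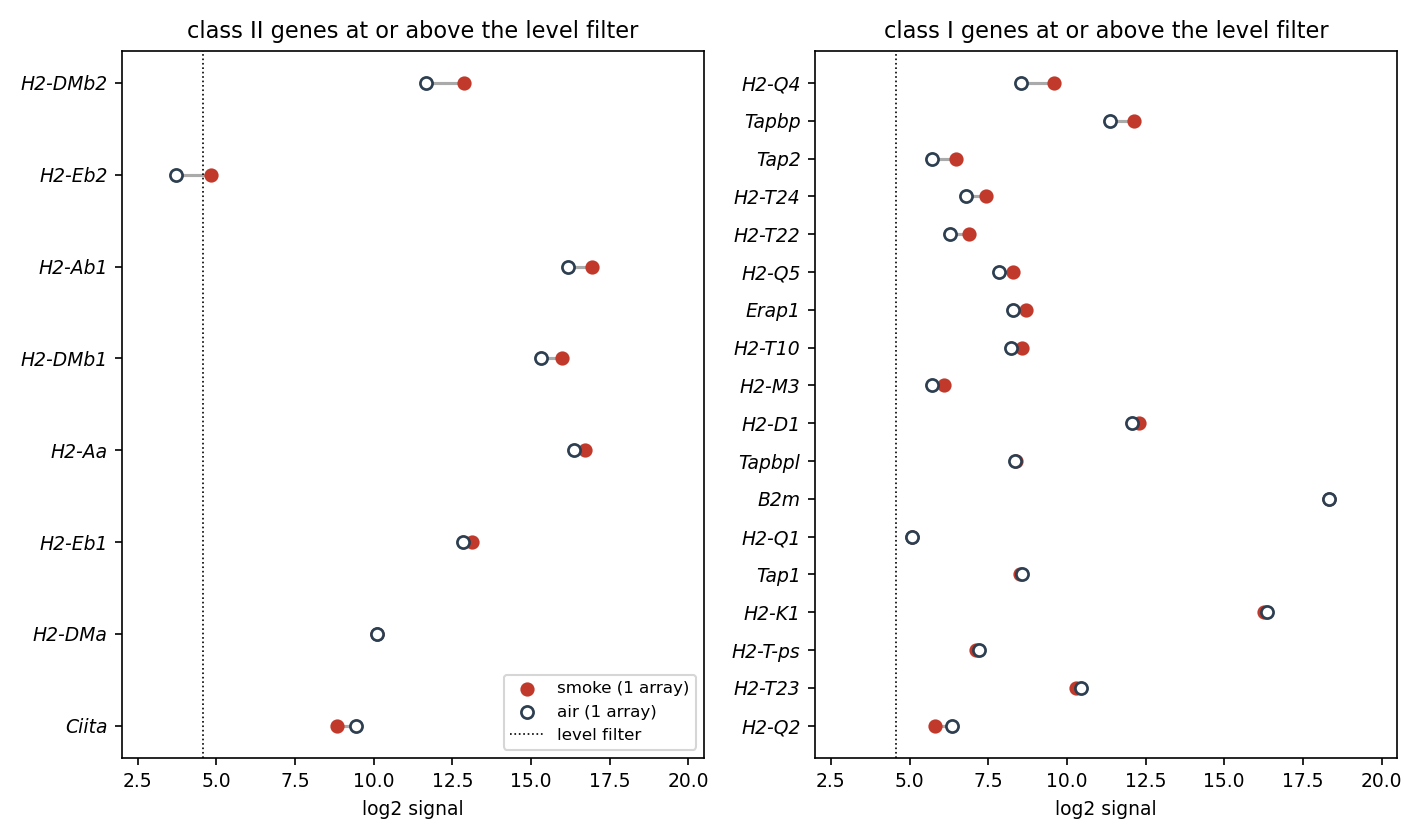
Log2 signal (horizontal axis) of the 8 class II genes (left) and 18 class I genes (right) at or above the level filter, with the smoke array as filled red points and the air array as open points. A line joins the arrays, genes run from the highest difference to the lowest, and the dotted line is the filter at 4.57. H2-DMb2 has the widest gap on the left (12.87 in smoke, 11.67 in air), and B2m has none (18.33 on both).

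The class I genes included 1 gene past 2-fold, H2-Q4. Of 31, 18 passed the level filter, 1 was 2-fold higher in smoke and 0 were 2-fold lower, which is 5.56% against the 3.94% of all genes. At 1.5-fold 5 were higher and 0 lower, beside 14.5% and 9.19% of all filtered genes. Among the 18, 11 were higher, 5 were lower and 2 were equal. Over all filtered genes, 54.3% were higher and 44.7% lower. Class I genes are close copies of one another, so a probe of one can also bind transcripts of others, and the values of single H2-Q and H2-T genes are uncertain for that reason.

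The classical heavy chains and the light chain differed little. H2-K1 was at 16.27 in smoke and 16.35 in air, a difference of -0.08. H2-D1 was at 12.29 in smoke and 12.07 in air, a difference of 0.22. B2m, the light chain shared by class I molecules, was at 18.33 on both arrays. All of these differences lay well inside the central 95% of the 200 genes of like level. That range ran from -0.58 to 1.07 for H2-K1, from -0.82 to 0.86 for H2-D1 and from -0.58 to 0.94 for B2m. The larger differences of H2-Ab1 (0.78), H2-DMb1 (0.65) and H2-Q4 (1.05) also lay inside their own ranges, whose upper ends were 0.94, 1.07 and 1.12. So did those of Tapbp, Tap2 and Ciita. The range alone therefore did not set the classical chains apart from these genes. B2m was not at the upper limit of the deposited scale, 19.93. Quantile normalization put the differences of B2m and H2-K1 at -0.16 and -0.15, on the lower side.

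Among the non-classical heavy chains, the 9 H2-Q and H2-T genes above the filter went both ways. H2-Q4, a gene of the Qa region, had the largest difference, at 9.58 in smoke and 8.53 in air. It was 2.07-fold higher, and 6 of its 200 nearest genes were as high. Its difference of 1.05 was 0.92 under quantile normalization and 0.95 after centring by level, both under 2-fold. H2-Q2, a gene of the same region, lay on the other side, at 5.81 in smoke and 6.35 in air. H2-Q5, a transcribed pseudogene per RefSeq, was at 8.28 in smoke and 7.83 in air, and H2-Q1 was at 5.09 on both arrays.

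Of the H2-T genes, H2-T24 was at 7.44 in smoke and 6.80 in air, and H2-T22, a ligand of some gamma delta T cells, was at 6.89 in smoke and 6.28 in air. These were 1.56-fold and 1.53-fold higher, and 20 and 26 of their 200 nearest genes were as high. The related H2-T10, also a transcribed pseudogene per RefSeq, was at 8.56 in smoke and 8.21 in air. H2-T23, which encodes the Qa-1 ligand of natural killer cell receptors, was at 10.30 in smoke and 10.45 in air, and H2-T-ps was at 7.11 in smoke and 7.22 in air. H2-T23 thus sat on the lower side while its neighbours H2-T22 and H2-T24 sat on the higher. H2-M3, which presents peptides that begin with N-formyl methionine, was at 6.08 in smoke and 5.73 in air.

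The remaining 13 class I heavy chain genes were below the filter on both arrays. They comprised the 10 other H2-M genes, most of them known from the vomeronasal organ, with H2-Q10, H2-T3 (the thymus leukaemia antigen) and the transcribed pseudogene H2-Bl. Their signals ran from 1.84 to 4.37 in smoke and from 1.79 to 4.45 in air. Of these, 7 were higher and 6 lower. H2-M10.6 was the 1 gene past 2-fold among them, at 3.66 in smoke and 2.46 in air. Over all 19489 genes with no filter, 2.4% were 2-fold higher and 2.09% were 2-fold lower. The H2-M10.6 difference of 1.20 was 0.41 with the offset.

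Peptide loading genes of class I, counted together with B2m, all passed the filter, with 0 of 6 past 2-fold. Tapbp (tapasin), which bridges TAP and the heavy chain, was at 12.14 in smoke and 11.38 in air, 1.69-fold higher. Tap2 was at 6.48 in smoke and 5.73 in air, 1.68-fold higher, whereas Tap1, which encodes the partner chain of the same peptide pump, was at 8.52 in smoke and 8.58 in air. Of the 200 genes nearest in level, 15 were as high as Tapbp, 12 as high as Tap2 and 131 as high as Tap1. The TAP subunits therefore differed unequally, and Tap1 lay near the middle of its like-level genes. Erap1, the peptide trimming protease, was at 8.71 in smoke and 8.30 in air, and Tapbpl, a tapasin-related peptide editor, was at 8.38 in smoke and 8.35 in air.

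**Figure D2:**
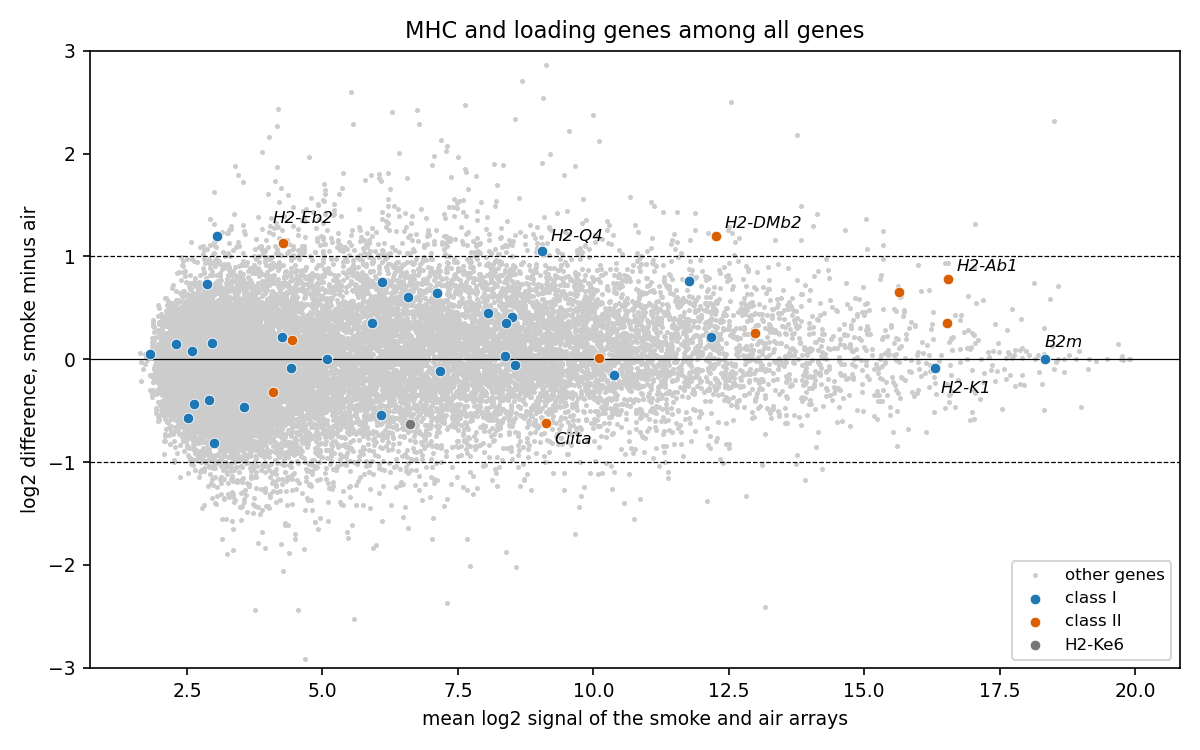
Log2 difference, smoke minus air (vertical axis), against the mean log2 signal of both arrays (horizontal axis) for all genes off the upper limit, with class I in blue, class II in orange, H2-Ke6 in dark grey and other genes in light grey. Dashed lines mark 2-fold, and 11 other genes lie outside the vertical axis. Orange points at high signal lie above 0, while B2m and H2-K1 lie at 0.00 and -0.08.

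Read against genes of like level, the classes differed in their shares and medians. Of the filtered members, only H2-DMb2 and H2-Eb2, both class II, lay outside the central range of their 200 nearest genes. Those nearest genes were taken with no level filter, whereas H2-Eb2 passed the filter only through smoke. The place of H2-Eb2 outside its range was therefore fixed in part by the filter. For the 8 filtered class II genes, the 200 nearest genes had 2-fold higher signals in 2.5% of cases on average, against 2 of 8 class II genes. For the 18 filtered class I genes that share was 3.31%, against 1 of 18. The median difference of the like-level genes was 0.055 for class II and 0.10 for class I, beside 0.50 and 0.285 for the filtered members themselves. Members of 1 pathway can vary together between 2 samples, and H2-Eb2 entered through its smoke signal, so these shares describe the arrays only.

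Of the 42 members, 38 lie on chromosome 17, and their neighbours gave a local comparison. From Tapbp to H2-M3 in RefSeq gene order, 167 genes were measured. In the stretch from H2-Oa to H2-Eb2, the members H2-DMb2, H2-DMb1, Tap2, H2-Ab1, H2-Aa, H2-Eb1 and H2-Eb2 were higher in smoke, H2-DMa and Tap1 were level within 0.1, and H2-Oa and H2-Ob were below the filter. The 3 other genes there, all above the filter, were Brd2, a chromatin reader (13.77 in smoke, 13.69 in air), and the immunoproteasome genes Psmb9 (6.05 in smoke, 5.73 in air) and Psmb8 (8.04 in smoke, 7.92 in air). Their median difference was 0.12, against 0.65 for the 9 members of the stretch above the filter. H2-Ke6, a hydroxysteroid dehydrogenase gene near H2-K1, was at 6.30 in smoke and 6.93 in air, 1.55-fold lower.

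**Figure D3:**
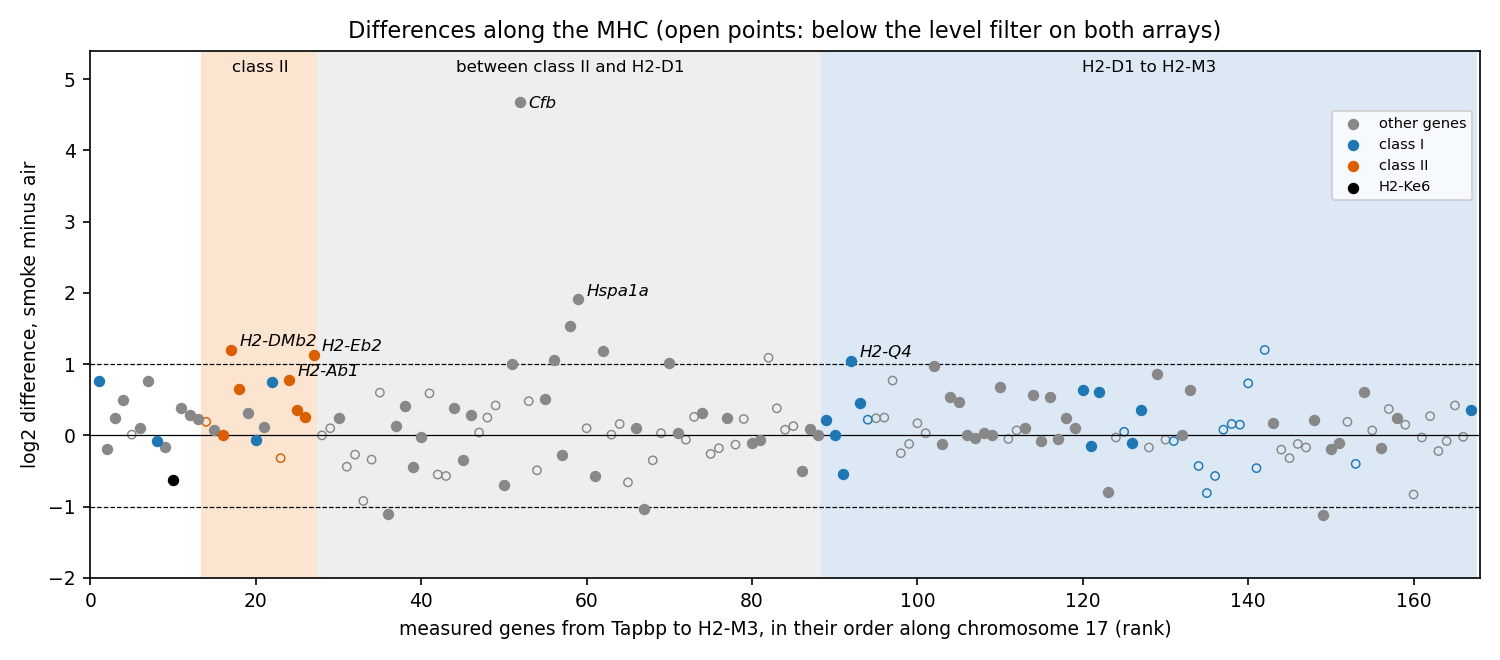
Log2 difference, smoke minus air, of the 167 measured genes from Tapbp to H2-M3, placed by their order along chromosome 17 and not by distance. Blue is class I, orange class II, black H2-Ke6 and grey all others, open points were below the level filter on both arrays, and dashed lines mark 2-fold. The orange points reach 1.20 at H2-DMb2, and the highest grey point is Cfb.

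Other genes of antigen presentation were taken from lists outside the module, of which 45 were measured and 37 passed the filter. Of these, 3 were 2-fold higher and 1 was 2-fold lower in smoke, beside 3.94% and 2.48% of all filtered genes. The median over the 45 was 0.12, against -0.02 over all genes. The genes past 2-fold were Cd80, Psme1, Ifi30 and Ctss.

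The class II route went in both directions. Ifi30, the lysosomal reductase GILT that opens disulfide bonds of antigens, was at 15.58 in smoke and 14.51 in air, 2.10-fold higher. Ctss (cathepsin S), the protease that trims the invariant chain in antigen-presenting cells, was at 6.44 in smoke and 7.58 in air, 2.20-fold lower. The other endosomal proteases were on the higher side, with differences of 0.63 for Lgmn, 0.61 for Ctsb and 0.42 for Ctsl. Of the 8 filtered genes of this list, 6 were higher and 2 lower, where 54.3% of all filtered genes were higher.

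On the class I side, Psme1, a subunit of the proteasome activator PA28, was at 17.70 in smoke and 16.38 in air, 2.50-fold higher. Its partner Psme2 was at 9.67 in smoke and 9.88 in air. The inducible catalytic subunits Psmb8, Psmb9 and Psmb10 differed by 0.12, 0.32 and 0.38. The activator subunits thus differed unequally, and the catalytic subunits stayed within 1.5-fold. Among the peptide loading chaperones 0 of 5 passed 2-fold, and the largest difference was that of Ero1a, an oxidase of the endoplasmic reticulum (10.42 in smoke, 9.43 in air).

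Of the costimulation genes, Cd80, a ligand of CD28 on T cells, was at 5.17 in smoke and 3.57 in air, so it too passed the filter through smoke alone. Its difference of 1.60 was 0.90 with the offset. Cd86 and Cd40 were below the filter on both arrays. Of the other presenting molecules 0 of 3 passed 2-fold, and Mr1, which presents microbial vitamin metabolites, had the largest difference, at 4.86 in smoke and 5.78 in air. Regulators gave 0 of 13 past 2-fold. Rfx5, which binds the X box of class II promoters, was at 8.75 in smoke and 8.63 in air, and Irf1, an interferon-induced activator, was at 11.36 in smoke and 11.09 in air. Nfyb, a subunit of the Y box factor NF-Y, had the largest difference of the regulators, at 7.06 in smoke and 7.70 in air.

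**Figure D4:**
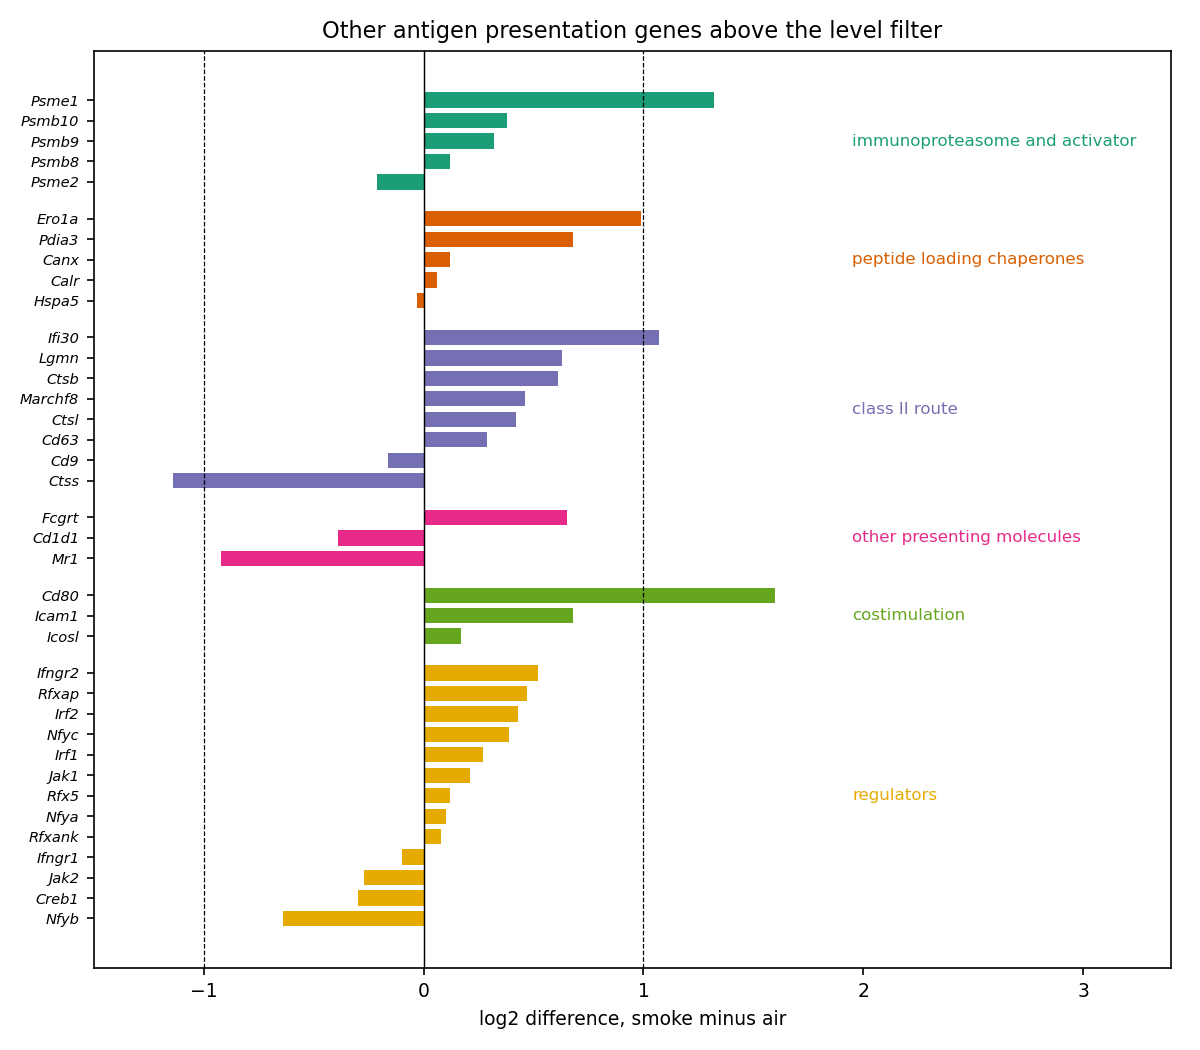
Log2 difference, smoke minus air, of the 37 antigen presentation genes outside the module that passed the level filter, with 1 bar per gene, grouped and coloured by list. Dashed lines mark 2-fold. Cd80, Psme1 and Ifi30 pass the right line and Ctss passes the left one.

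Class II transcripts can also come from leukocytes in a sort, so markers of such cells are given beside them. The alveolar type 2 markers were bright on both arrays, with 6 of 10 at the upper limit (Sftpc among them), and Epcam was at 10.92 in smoke and 11.09 in air. Ptprc (CD45), a gene of all leukocytes, was at 7.59 in smoke and 7.64 in air. Of 12 dendritic cell markers, 10 were below the filter on both arrays, including Flt3, Zbtb46, Xcr1 and Itgax. The summed linear signal of the 12 was 187 in smoke and 228 in air. The largest of their filtered differences was that of Ccr7, at 6.07 in smoke and 6.57 in air.

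Macrophage and monocyte markers had 0 of 5 filtered genes past 2-fold, with a summed linear signal of 1531 in smoke and 1407 in air, and 4 of the 5 were lower. The exception was Ly6c2, at 9.82 in smoke and 9.45 in air. It was the brightest of the list and weighed most in that sum. The largest difference was that of Ccr2, a chemokine receptor of monocytes, at 4.22 in smoke and 4.80 in air. Of 8 measured B cell markers, Ms4a1, Pax5, Cd22, Blk and Fcrla were below the filter on both arrays. Cd79b was at 7.18 in smoke and 6.86 in air, and Cd79a was at 4.90 in smoke and 5.06 in air. Fcer2a, the low-affinity IgE receptor, was at 9.62 in smoke and 8.50 in air. The summed B cell signal was 1003 in smoke and 554 in air, and 216 in smoke and 192 in air without Fcer2a. T and NK cell markers summed to 266 in smoke and 257 in air, with Cd3d past 2-fold (4.66 in smoke, 3.63 in air). All 8 endothelial markers were lower in smoke, with a ratio of summed signals, smoke over air, of 0.622, and Cldn5 and Eng were past 2-fold, at differences of -1.17 and -1.03. In RNA of a whole sort, fewer cells of a type and less RNA per cell cannot be told apart. The part of these cells in the class II differences was not tested.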

How the data were processed

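Per the submitters' processing notes, the authors used Transcriptome Analysis Console, with no version. The sources used here do not state its settings, the normalization or a build. Log2 signals were deposited by the authors, 1 per probe and array, and their scale was read from the values themselves (1.55 to 19.93, array medians 4.53 in smoke and 4.61 in air). The log base and centring are unstated, and the direction follows from the sample labels. No scanner files or detection calls were used. The number of arrays, 1 per group, limits the precision.

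Of 22206 probes, 19572 had 1 gene symbol, 0 had several, and 2634 are unnamed here. Probes of 1 gene were averaged (55 genes), and 16 genes whose signal stood at the upper limit in smoke and in air were left out. All 42 members matched RefSeq by Entrez number. Members, lists, named genes and thresholds were chosen with earlier results of these data known. Every member was accounted for, with both values for those above the level filter. From the pathway and marker lists the text names the genes past 2-fold, else the largest difference, plus genes fixed by name, and further ones chosen after their values were seen. Like-level genes were the 200 nearest in mean level or 10 bins, taken with no level filter. The procedure was tested on simulated data (Python 3.11.15, pandas 2.3.3, numpy 2.4.6). Alternatives covered the filter, threshold, normalization, centring, offset and summary.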

Additional observations from a re-analysis of the deposited data

How the results depend on the processing

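No paired analysis was possible because each group has 1 array. The class I count of 1 gene 2-fold higher was 2 with no filter, 0 under quantile normalization, 0 after centring by level, 5 at 1.5-fold and 0 at 3-fold. The class II count of 2 was 1 with the filter at the 75th percentile, 1 with the filter on the mean of both arrays, 1 with the offset of 16, 4 at 1.5-fold and 0 at 3-fold. The class II count of 0 lower was 1 at 1.5-fold, and that gene was Ciita. The class I median of 0.08 was 0.22 with the filter at the 75th percentile and 0.285 with the filter on the mean or, chosen after seeing the data, at the median of all values. The class II median of 0.305 was 0.50 with that added filter and 0.26 under quantile normalization. With the filter at the 75th percentile it was 0.35, and with the filter on the mean of both arrays it was also 0.35. The medians at the added filter rest on 18 class I and 8 class II genes. Of the 27 filtered members, 27 moved by less than the spread of like-level genes under quantile normalization, 27 after centring and 26 with the offset, the exception being H2-Eb2. The median of all filtered genes was 0.06, and -0.02 under quantile normalization. Signals under 4.57 limit the H2-M and DO genes, for which no detection call was used.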

Other observations

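Genes that lie between the class II stretch and H2-D1, none of them a member of the module, held the largest differences among the 167 measured from Tapbp to H2-M3. Of 61 measured genes there, 30 passed the level filter, 7 were 2-fold higher in smoke (23.3%) and 2 were 2-fold lower (6.67%), beside 3.94% and 2.48% of all filtered genes. Cfb, complement factor B, was at 9.83 in smoke and 5.15 in air. Hspa1a and Hspa1b, inducible HSP70 genes that are near-identical neighbours, were 3.76-fold and 2.89-fold higher. Vars, a valyl-tRNA synthetase gene, was at 8.87 in smoke and 7.69 in air. Slc44a4, of the choline transporter-like family, was at 9.49 in smoke and 8.43 in air. Nelfe and Ly6g6c were also past 2-fold on the higher side, with differences of 1.0 and 1.02, and Ly6g6c was 0.62 with the offset. Pbx2, a homeobox gene, and Ddah2, a dimethylarginine hydrolase gene, were 2.16-fold and 2.06-fold lower. This stretch was chosen after its values were seen.

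From H2-D1 to H2-M3, the 28 filtered genes outside the module held 0 that were 2-fold higher in smoke and 1 that was 2-fold lower. That gene was Ppp1r11, a phosphatase inhibitor, at 9.52 in smoke and 10.64 in air.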
